A study of Mus musculus with 12 samples.

Results

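The receptors for insulin, IGF, prolactin and growth hormone and their partners in mouse pancreatic islets are described here through Insr, Igf1r, Irs1, Irs2, Igf1, Igf2, Igf2r, Prlr, Ghr and Met. These 10 genes were chosen by name, as receptors, receptor substrates and ligands through which growth signals reach beta cells, and all 10 were found among the 24421 genes of the deposited table and passed the filter on low counts. Knockout mice carried both floxed Bmal1 alleles and a tamoxifen-dependent Cre under the rat insulin promoter (RIP), which is active in beta cells (Bmal1fl/flRIPCreERT/+), and control mice carried the same floxed alleles without Cre (Bmal1fl/fl). BMAL1 is the activator of the circadian clock that pairs with CLOCK. Islets were taken from both genotypes 24 h after a submaximal dose of streptozotocin (STZ), 4 wk after STZ, or 24 h after citrate buffer (vehicle), giving 6 groups of 2 libraries named A and B. STZ is a sugar-linked toxin that enters cells through the glucose transporter of beta cells. The labels give no age or tamoxifen schedule, do not say whether A and B came from separate animals, and give no citrate group at 4 wk, so p-values measure the spread between these libraries and comparisons of 4 wk with vehicle mix treatment with time. Only the genotype with Cre carries the transgene, so effects of Cre and of Bmal1 loss cannot be told apart.

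As background, insulin and IGF1 bind the receptor tyrosine kinases encoded by Insr and Igf1r, which phosphorylate the adaptor proteins IRS1 and IRS2 and so engage PI3 kinase, AKT and the FOXO factors. Prolactin and growth hormone bind cytokine receptors without kinase activity of their own, encoded by Prlr and Ghr, which work through JAK2 and STAT5; prolactin receptor signalling is known for the growth of beta-cell mass in pregnancy. HGF acts through the receptor tyrosine kinase MET, and the receptor encoded by Igf2r binds IGF2 and clears it, besides sorting lysosomal enzymes.

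Total counts per library were 101772241 to 127207523. Reads over Esr1, the part of the oestrogen receptor joined to this Cre, stood at 359 and 323 CPM (the usual count rate per library, here on TMM-scaled library sizes) in knockout vehicle islets, against 0.968 and 0.842 CPM in control vehicle islets, and every knockout library was above every control library. The gene count of Arntl (Bmal1) itself spans exons outside the floxed part and so checks no label: it was 17.8 and 19.9 CPM in knockout vehicle islets, against 8.79 and 8.36 CPM in control vehicle islets. All 6 groups held the beta-cell markers, and all held acinar transcripts: the summed level of 16 acinar markers was 83955 and 81419 CPM in knockout vehicle islets, against 367345 and 347853 CPM in control vehicle islets, and 377806 and 386365 CPM in knockout islets 24 h after STZ, against 195072 and 201400.0 CPM in control islets at that time. The summed level of 11 beta-cell markers was 22749 and 25314 CPM in knockout islets 24 h after STZ, against 119944 and 128758 CPM in control islets. In such bulk samples, fewer cells of a type and less RNA per cell cannot be told apart.

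Per unit of transcript length, Prlr and Ghr were the most abundant of the 10, with means over the 12 libraries of 111 and 90.3 TPM (length-scaled transcript abundance, as deposited by the authors). Group means of Prlr ran over 29.8 to 234 TPM and those of Ghr over 55.4 to 122 TPM. Igf2r at 18.99, Insr at 15.4, Igf1 at 10.01, Met at 8.65 and Igf1r at 6.68 TPM followed, and Irs2 at 2.75, Igf2 at 2.13 and Irs1 at 1.98 TPM were the lowest. Group means of Igf1 spanned 2.08 to 29.9 TPM, the widest ratio of the 10, and those of Insr 11.3 to 18.96 TPM.

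The regions just upstream of the start sites are shown for Prlr, whose first exons could be told apart in these data, and for the 4 members whose window holds an E-box, the motif that CLOCK and BMAL1 bind. RefSeq gives windows of 250 bases before to 50 bases after a start site (GRCm38.p6, the build called mm10) for 9 of the 10 members, with 15 windows in all. Capitals mark the letters found on either strand for the E-box CACGTG, the FOXO motif TGTTTAC and the STAT5 motif TTCNNNGAA, which have no overlap with each other here. Sequences run 5′ to 3′ on the strand of the gene.
Prlr, downstream start (chr15:10223656-10223955, plus strand): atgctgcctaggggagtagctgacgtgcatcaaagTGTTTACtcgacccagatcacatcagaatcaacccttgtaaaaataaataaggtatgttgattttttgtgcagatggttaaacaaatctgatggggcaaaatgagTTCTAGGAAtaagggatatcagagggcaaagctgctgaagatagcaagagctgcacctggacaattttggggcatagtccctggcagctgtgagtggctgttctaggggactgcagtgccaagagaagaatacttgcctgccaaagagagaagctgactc
Prlr, upstream start (chr15:10176988-10177287, plus strand): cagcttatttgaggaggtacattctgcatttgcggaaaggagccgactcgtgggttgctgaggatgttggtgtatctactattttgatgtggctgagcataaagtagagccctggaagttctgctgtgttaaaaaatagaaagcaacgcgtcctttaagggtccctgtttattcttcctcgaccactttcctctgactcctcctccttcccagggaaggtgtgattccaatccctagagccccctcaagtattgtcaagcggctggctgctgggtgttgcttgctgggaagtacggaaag
Igf2r (chr17:12769657-12769956, minus strand): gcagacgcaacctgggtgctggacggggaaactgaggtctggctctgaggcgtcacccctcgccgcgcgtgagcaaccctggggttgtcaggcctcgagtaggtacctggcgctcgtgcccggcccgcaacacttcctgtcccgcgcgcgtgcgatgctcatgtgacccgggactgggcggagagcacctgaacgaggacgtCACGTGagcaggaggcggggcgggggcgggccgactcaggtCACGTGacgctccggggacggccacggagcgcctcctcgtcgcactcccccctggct
Irs1 (chr1:82291390-82291689, minus strand): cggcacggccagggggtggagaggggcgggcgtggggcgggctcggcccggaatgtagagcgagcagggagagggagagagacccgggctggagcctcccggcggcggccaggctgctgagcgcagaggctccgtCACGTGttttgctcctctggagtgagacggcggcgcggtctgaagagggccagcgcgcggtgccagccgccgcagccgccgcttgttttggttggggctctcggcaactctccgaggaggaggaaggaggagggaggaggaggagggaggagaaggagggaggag
Irs2 (chr8:11008880-11009179, minus strand): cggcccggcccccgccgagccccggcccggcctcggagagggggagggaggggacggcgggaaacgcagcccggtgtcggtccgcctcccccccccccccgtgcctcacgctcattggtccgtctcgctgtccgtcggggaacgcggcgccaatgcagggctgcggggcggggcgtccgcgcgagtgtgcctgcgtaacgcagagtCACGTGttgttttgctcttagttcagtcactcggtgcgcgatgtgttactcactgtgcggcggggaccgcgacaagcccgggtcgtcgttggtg
Met (chr6:17463707-17464006, plus strand): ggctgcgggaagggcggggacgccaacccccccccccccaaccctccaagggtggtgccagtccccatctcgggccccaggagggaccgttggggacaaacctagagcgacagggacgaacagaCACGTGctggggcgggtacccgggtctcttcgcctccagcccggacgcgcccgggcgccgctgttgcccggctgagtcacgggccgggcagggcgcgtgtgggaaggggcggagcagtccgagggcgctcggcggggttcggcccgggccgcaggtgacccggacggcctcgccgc

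The Prlr downstream window held a FOXO match 215 bases and a STAT5 match 110 bases before the start. E-boxes lay 48 and 7 bases before the start of Igf2r, 115 bases before that of Irs1, 44 bases before that of Irs2 and 126 bases before that of Met. The windows of Igf1r, Igf1, Igf2, Ghr and the other Prlr starts held none of the 3 motifs. The Igf1 window is that of a downstream start, and one at the upstream start was not used here. Of 32851 RefSeq windows of this length, 7.15% held the E-box, 3.65% the FOXO motif and 8.3% the STAT5 motif. A match in these letters is a description and does not say that a factor binds there.

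**Figure D1:**
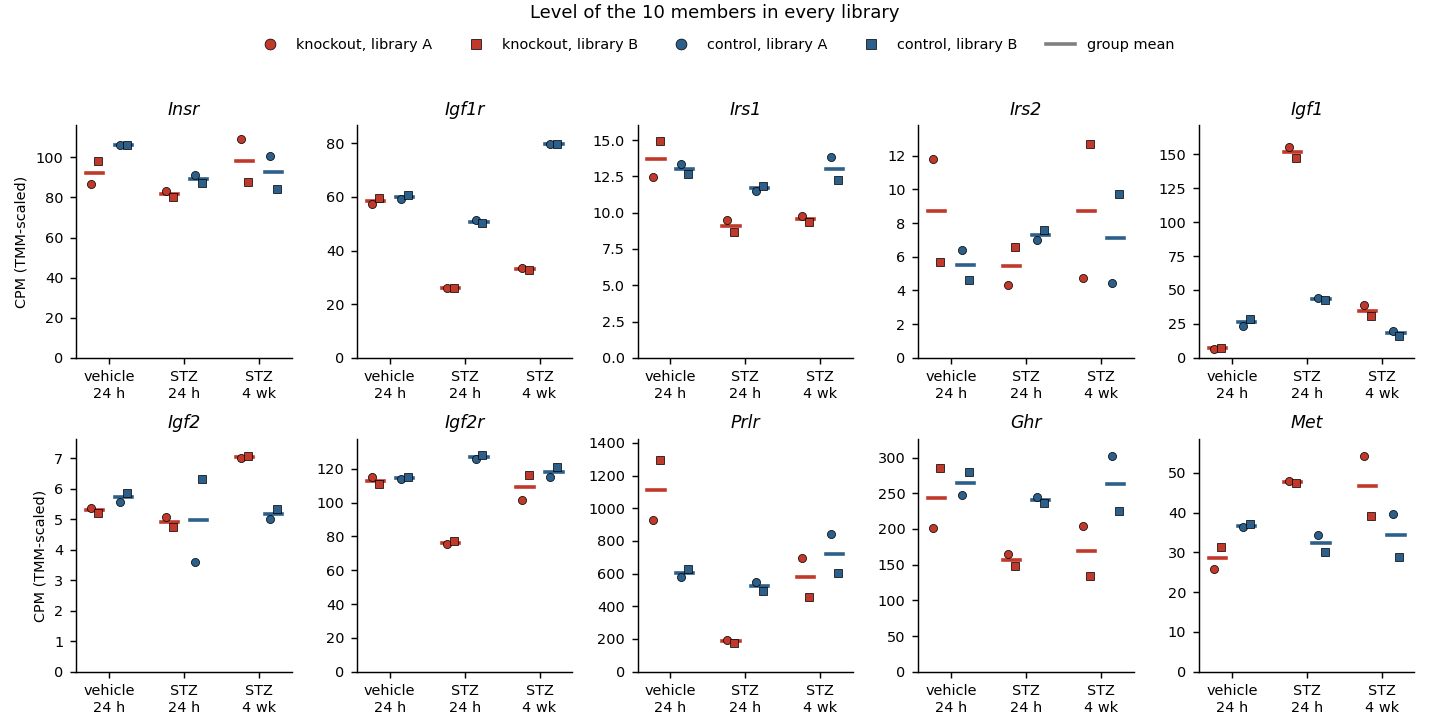
Level of each member in CPM (linear axis from 0) in every library, knockout in red left of control in blue, for vehicle, STZ 24 h and STZ 4 wk; bars are means of 2 libraries. Igf1 was highest and Prlr, Igf1r and Igf2r lowest in the knockout libraries taken 24 h after STZ, while the A and B libraries of Irs2 lay far apart in several groups.

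Fewer of the 10 genes passed between genotypes without injury than after STZ, as for the whole table. Under vehicle, 1 member passed an adjusted p of 0.05 between knockout and control (Igf1, lower), when 9.64% of all genes (1.96% higher and 7.68% lower) did, of 17411 tested. In the STZ 24 h islets 5 members passed, Igf1 and Met higher and Igf1r, Igf2r and Prlr lower in knockout, against 43% of all genes (23.7% higher and 19.4% lower). At 4 wk 3 passed, Igf1 higher and Igf1r and Irs1 lower, against 27.8% of all genes (19.9% higher and 7.89% lower). The shares of members called, of so few genes, are not read as different from those backgrounds. The median log2 fold change of the 10 was -0.39 at 24 h after STZ and -0.02 at 4 wk, beside medians of all genes of 0.00 and 0.01. With the A and B libraries of the 2 genotypes paired by letter, the members passing were 3 for vehicle, 7 for STZ 24 h and 6 for STZ 4 wk. No label gives this pairing, so these counts and the paired p-values below assume it.

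**Figure D2:**
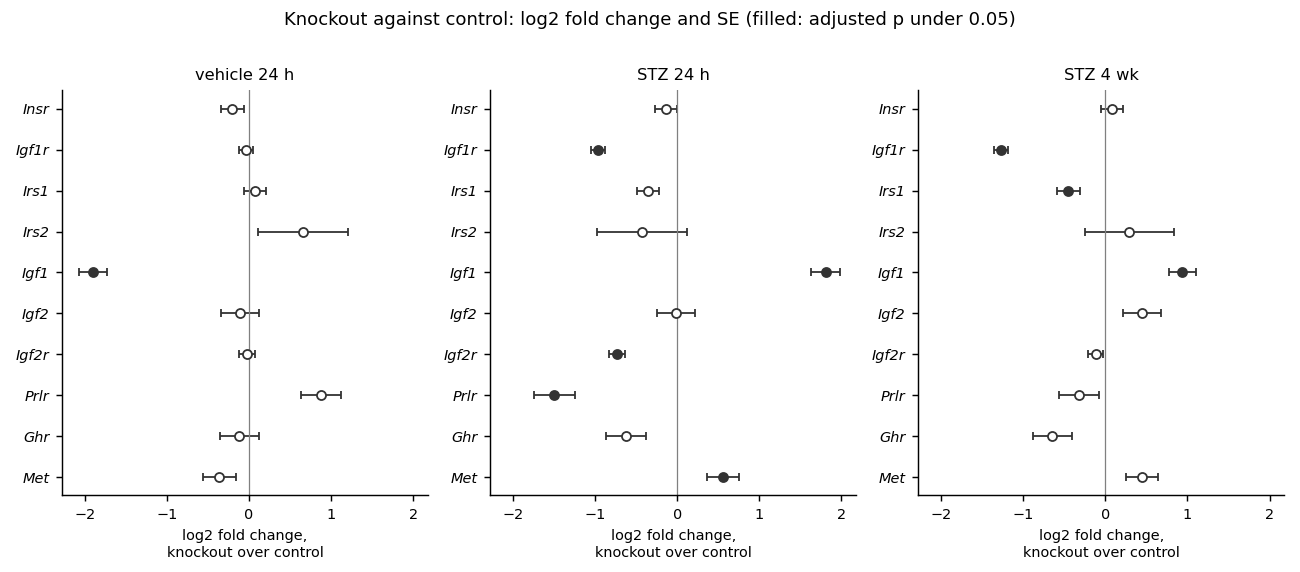
Log2 fold change of knockout over control (horizontal axis) with its SE as the bar for each member, in vehicle, STZ 24 h and STZ 4 wk islets; filled points passed an adjusted p of 0.05. Igf1 stood below 0 under vehicle and above 0 at both times after STZ, and Igf1r stood below 0 at both times after STZ.

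Scaling decides where 0 lies in these comparisons. With counts scaled to a list of 20 pan-endocrine genes, the median log2 fold change of all genes moved to -0.32 under vehicle, 1.88 at 24 h after STZ and 0.67 at 4 wk for knockout over control, and with total counts to 0.53, -0.24 and -0.08. For STZ 24 h over vehicle in knockout islets the pan-endocrine median was 2.09, and in control islets -0.09. The split of all calls moved with it: 4119 genes were higher and 3372 lower in knockout at 24 h after STZ, but 14872 higher and 90 lower with pan-endocrine scaling and 3318 and 5183 with total counts. Under vehicle 342 were higher and 1337 lower, but 6221 higher and 984 lower with total counts and 133 and 3297 with pan-endocrine scaling. At 4 wk 3465 were higher and 1374 lower, but 8780 higher and 111 lower with pan-endocrine scaling and 3194 and 2037 with total counts. Values below are relative to the TMM scale, on which the median of all genes stood near 0.

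The insulin receptor gene Insr (chr8:3150922-3279617, minus strand) passed the test in none of the 11 comparisons. It had 86.5 and 98.1 CPM in knockout vehicle islets, against 106 and 106 CPM in control vehicle islets. Its level 24 h after STZ was 83.2 and 80.03 CPM in knockout islets, against 91.3 and 87.4 CPM in control islets. By 4 wk it was 109 and 87.8 CPM in knockout islets, against 101 and 84.4 CPM in control islets. The libraries of the genotypes overlapped at 4 wk and not under vehicle or at 24 h, where all control values were the higher. Knockout over control gave log2 fold changes of -0.20 (SE 0.13), -0.13 (SE 0.13) and 0.09 (SE 0.13) for vehicle, STZ 24 h and STZ 4 wk, with adjusted p = 0.515, 0.469 and 0.7. Coverage over the annotated first exon was 0.596 to 9.48 reads per base in the 12 libraries, against 56.1 to 101 over the second exon, so most counts come from downstream of it. The annotation holds 1 Insr transcript, and the receptor isoforms that differ by 1 alternative exon were not separated.

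Igf1r (chr7:67952257-68233667, plus strand), the receptor for IGF1, was lower in knockout than in control islets at both times after STZ and was not called between genotypes without injury. Under vehicle it had 57.2 and 59.4 CPM in knockout islets, against 59.1 and 60.5 CPM in control islets. The 24 h STZ libraries gave 26.02 and 26.02 CPM in knockout islets, against 51.3 and 50.1 CPM in control islets (log2 fold change -0.96, SE 0.08, adjusted p = 3.49e-05). Its level 4 wk after STZ was 33.6 and 32.6 CPM in knockout islets, against 79.8 and 79.6 CPM in control islets (log2 fold change -1.27, SE 0.09, adjusted p = 1.08e-05). The genotypes overlapped under vehicle, and the libraries after STZ did not overlap. With pan-endocrine scaling the 24 h difference was 0.92, above 0 but below the shifted median of all genes.

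Within knockout islets Igf1r fell by 1.16 on the log2 scale at 24 h after STZ (SE 0.09, adjusted p = 4.96e-06, log2 value 0.93 with pan-endocrine scaling) and by 0.82 at 4 wk (SE 0.08, adjusted p = 7.57e-05, adjusted p = 0.208 with pan-endocrine scaling). In control islets it was -0.24 at 24 h (adjusted p = 0.16, and log2 value 0.07 with total counts) and rose by 0.41 at 4 wk (SE 0.08, adjusted p = 0.0151). That control rise lost its call when any 1 of the 4 libraries compared was left out, with adjusted p of 0.069 to 0.114, and with pan-endocrine scaling (adjusted p = 0.493). The difference in the STZ effect, knockout minus control, was -0.93 at 24 h (SE 0.12, adjusted p = 0.000332, log2 value 1.29 with pan-endocrine scaling) and -1.23 at 4 wk (SE 0.12, adjusted p = 8.38e-05, adjusted p = 0.141 with pan-endocrine scaling). The vehicle libraries enter both of these differences. From 24 h to 4 wk Igf1r rose by 0.35 in knockout islets (adjusted p = 0.0119, adjusted p = 0.0769 without knockout STZ 24 h A and adjusted p = 0.0771 without B, and a change of -1.07 with pan-endocrine scaling) and by 0.65 in control islets (adjusted p = 0.00219).

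Igf2r (chr17:12682406-12769706, minus strand), the clearance receptor for IGF2, was lower in knockout islets 24 h after STZ. It had 75.6 and 77.2 CPM there, against 126 and 128 CPM in control islets (log2 fold change -0.73, SE 0.10, adjusted p = 0.000327), and with pan-endocrine scaling the difference was 1.15. The other 4 groups were 115 and 111 CPM in knockout vehicle, 114 and 115 CPM in control vehicle, 102 and 116 CPM in knockout and 115 and 121 CPM in control islets 4 wk after STZ. All 10 other libraries stood above those 2. Igf2r fell in knockout islets 24 h after STZ (log2 fold change -0.56, SE 0.10, adjusted p = 0.00097, log2 value 1.52 with pan-endocrine scaling), against 0.15 in control islets (adjusted p = 0.48), and the 2 effects differed by -0.71 (SE 0.14, adjusted p = 0.00306, log2 value 1.50 with pan-endocrine scaling). From 24 h to 4 wk it rose by 0.51 in knockout islets (adjusted p = 0.00321, log2 value -0.90 with pan-endocrine scaling). Its annotated exons share no base with those of Airn, the non-coding RNA of the opposite strand at this imprinted locus. Whether reads from outside the annotated Airn exons enter the Igf2r counts was not checked.

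Among the substrates, Irs1 (chr1:82233105-82291439, minus strand), which couples the insulin and IGF1 receptors to PI3 kinase, was at low levels and passed as lower in knockout islets at 4 wk after STZ, not at 24 h. At 4 wk after STZ it had 9.78 and 9.33 CPM in knockout islets, against 13.8 and 12.2 CPM in control islets (log2 fold change -0.45, SE 0.13, adjusted p = 0.0362, but log2 value 0.22 with pan-endocrine scaling). This call ended when any 1 of the 4 libraries was left out, with adjusted p of 0.05005 to 0.184. At 24 h after STZ it had 9.52 and 8.70 CPM in knockout islets, against 11.5 and 11.8 CPM in control islets (log2 fold change -0.36, SE 0.13, adjusted p = 0.0599, and adjusted p = 0.0277 with libraries paired by letter, but log2 value 1.52 with pan-endocrine scaling). Under vehicle it had 12.4 and 14.9 CPM in knockout islets, against 13.4 and 12.6 CPM in control islets, and the genotypes overlapped. In knockout islets Irs1 fell at 24 h after STZ (log2 fold change -0.59, SE 0.13, adjusted p = 0.00518, but log2 value 1.50 with pan-endocrine scaling) and at 4 wk (log2 fold change -0.52, SE 0.13, adjusted p = 0.0156, but log2 value 0.16 with pan-endocrine scaling). The 4 wk call ended without knockout vehicle B (adjusted p = 0.111) or knockout STZ 4 wk B (adjusted p = 0.0603). Of its exon bases 30.8% lie opposite an annotated gene on the other strand, Gm9747. Whether the deposited counts keep the strands apart was not checked.

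Irs2 (chr8:10986964-11008430, minus strand), the substrate known for keeping beta-cell mass in mice, passed in no comparison, and its libraries differed widely within a group. It had 11.8 and 5.70 CPM in knockout vehicle islets, against 6.42 and 4.64 CPM in control vehicle islets. Its level 24 h after STZ was 4.30 and 6.56 CPM in knockout islets, against 7.00 and 7.60 CPM in control islets. The 4 wk libraries gave 4.72 and 12.7 CPM in knockout islets, against 4.47 and 9.75 CPM in control islets. The A and B libraries of a group lay as far apart as 1.34 on the log2 scale, in knockout islets at 4 wk. They differed by the same sign in both genotypes of a condition, A being higher under vehicle and B after STZ. Its SE for knockout over control was 0.55, 0.55 and 0.54 on the log2 scale in the 3 conditions. With libraries paired by letter the log2 fold changes were 0.59 under vehicle, -0.45 at 24 h after STZ and 0.23 at 4 wk, with adjusted p of 0.0572, 0.0619 and 0.332. The annotated Irs2 transcript has 4012 bases for a protein of 1321 residues, so it holds little beyond the coding sequence. Any reads outside this transcript are not in the Irs2 counts.

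Igf1 (chr10:87859056-87937047, plus strand), the ligand of IGF1R and in the body a main product of liver under growth hormone and of macrophages and mesenchymal cells in tissue, moved most of the 10. Under vehicle it had 6.43 and 7.52 CPM in knockout islets, against 23.2 and 28.9 CPM in control islets (log2 fold change -1.90, SE 0.17, adjusted p = 0.000166). The order was turned round 24 h after STZ, with 156 and 147 CPM in knockout islets, against 44.1 and 42.4 CPM in control islets (log2 fold change 1.81, SE 0.17, adjusted p = 5.94e-05). By 4 wk it had 38.8 and 30.5 CPM in knockout islets, against 19.9 and 16.2 CPM in control islets (log2 fold change 0.94, SE 0.17, adjusted p = 0.00324). The genotypes overlapped in none of the 3 conditions. Knockout vehicle was the lowest and knockout 24 h after STZ the highest of the 6 groups, and no library of either overlapped any other group.

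Igf1 rose 21.7-fold in knockout islets 24 h after STZ (log2 fold change 4.44, SE 0.19, adjusted p = 3.06e-07). In control islets it rose by 0.73 (SE 0.17, adjusted p = 0.0324), a call that ended without any 1 of the 4 libraries (adjusted p of 0.0585 to 0.232) and with pan-endocrine scaling (adjusted p = 0.0722). The STZ effects of the genotypes differed by 3.71 at 24 h (SE 0.24, adjusted p = 9.23e-06) and by 2.84 at 4 wk (SE 0.24, adjusted p = 4.39e-05). At 4 wk it was still above vehicle in knockout islets, by 2.31 (adjusted p = 1.21e-05), and at -0.53 in control islets (adjusted p = 0.106, and adjusted p = 0.0121 with pan-endocrine scaling). From 24 h to 4 wk it fell by 2.13 in knockout islets (adjusted p = 4.17e-05) and by 1.26 in control islets (adjusted p = 0.00292).

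Marker sums of cells that make Igf1 were higher in knockout islets 24 h after STZ, as Igf1 was. The summed level of 12 macrophage markers was 1677 and 1661 CPM in knockout islets 24 h after STZ, against 206 and 202 CPM in control islets, with 12 of 12 higher. That of 11 stellate-cell and fibroblast markers was 1236 and 1243 CPM in knockout islets, against 527 and 533 CPM in control islets, with 6 of 11 higher and 1 lower. That of 12 hepatocyte markers was 18576 and 18128 CPM in knockout islets, against 5887 and 5992 CPM in control islets, with 11 of 12 higher. Of all genes 23.7% were higher and 19.4% lower in that comparison. These 3 lists were all highest in the group where Igf1 was highest, and so were the acinar, endothelial and adipocyte sums. The 9 endothelial markers summed to 703 and 734 CPM in knockout islets 24 h after STZ, against 502 and 521 CPM in control islets. Of these 9, 4 passed as higher and 2 as lower. Under vehicle, where Igf1 was lower in knockout islets, the sums were 74.5 and 68.8 CPM in knockout against 101 and 95.1 CPM in control islets for macrophage markers, 206 and 202 CPM in knockout against 323 and 322 CPM in control islets for stellate markers, and 1492 and 985 CPM in knockout against 1188 and 1044 CPM in control islets for hepatocyte markers. In knockout vehicle islets 2 of 12 macrophage and 3 of 11 stellate markers passed as lower and none as higher. Of the hepatocyte list 11 of 12 were lower there, 4 being at 0 in library B, although its sums overlapped between genotypes. All 16 acinar markers were lower, when 7.68% of all genes were. Ttr of the hepatocyte list is also an alpha-cell marker, and no macrophage or stellate marker was at 0 in any library. At 4 wk the sums were 456 and 522 CPM in knockout against 115 and 126 CPM in control islets for macrophage markers and 463 and 522 CPM in knockout against 214 and 227 CPM in control islets for stellate markers. Across the 12 libraries, which share these groups, Igf1 in log2 CPM followed the stellate sum with a Pearson r of 0.953, the macrophage sum with 0.894, the adipocyte sum with 0.889, the hepatocyte sum with 0.861 and the acinar sum with 0.815. The 7 adipocyte markers summed to 49.6 and 42.9 CPM in knockout islets 24 h after STZ, against 15.96 and 13.98 CPM in control islets, and 1 to 5 of the 7 were at 0 in each library. The part of these cells in the Igf1 result was not tested.

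**Figure D3:**
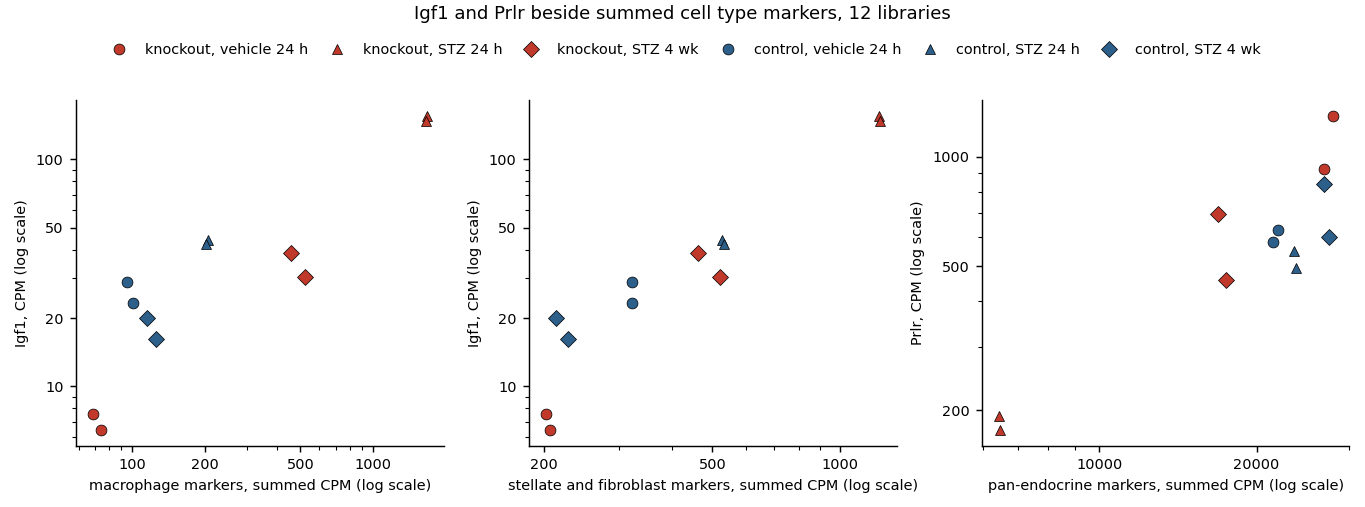
Igf1 in CPM against the summed CPM of 12 macrophage and of 11 stellate and fibroblast markers, and Prlr in CPM against the summed CPM of 20 pan-endocrine genes, with 1 point per library (both axes logarithmic; red knockout, blue control). The knockout libraries taken 24 h after STZ stand at the upper right for Igf1 and at the lower left for Prlr.

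The Igf1 transcripts differ by first exon and by the use of a 52-base exon that changes the tail of the precursor peptide. The upstream first exon (chr10:87859056-87859412) took most first-exon coverage after STZ: at 24 h it was 95.7 and 94.6% in knockout islets, against 95.05 and 94.3% in control islets. At 4 wk it was 93.6 to 94.9% in knockout islets, against 79.9 to 91.98% in control islets. Under vehicle it was 48.2 and 67.5% in knockout islets, against 79.7 and 57.4% in control islets. Few reads cover either exon in knockout vehicle islets. Upstream coverage was 19.7 and 30.3 in control vehicle islets, near the 28.9 to 38.7 of control islets at 4 wk. Coverage of the 52-base exon over that of the coding exon before it was 0.333 and 0.3 in knockout islets 24 h after STZ, against 0.28 and 0.172 in control islets, and the genotypes did not overlap, although the control libraries were far apart. These ratios are descriptions without a test.

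Igf2 (chr7:142650768-142661035, minus strand), a fetal growth factor expressed from the paternal allele, was low and passed in no comparison. It had 5.36 and 5.21 CPM in knockout vehicle islets, against 5.57 and 5.86 CPM in control vehicle islets. The 24 h STZ libraries gave 5.07 and 4.75 CPM in knockout islets, against 3.60 and 6.31 CPM in control islets, and at 4 wk 6.99 and 7.08 CPM in knockout islets, against 4.99 and 5.32 CPM in control islets (log2 fold change 0.45, SE 0.23, adjusted p = 0.199). Most of this signal came from the last exon (chr7:142650768-142654052), covered 8.17 to 19.4 reads deep. The 2 coding exons before it were covered 0 to 4.81 and 0.472 to 7.36 reads deep. GENCODE places another gene of the same strand, Gm49394, over 84.89% of the Igf2 exon bases, so the Igf2 level is uncertain and its counts cannot be assigned to that gene or the other.

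Prlr (chr15:10177238-10349180, plus strand), the prolactin receptor, showed the largest fall of the 10, in knockout islets 24 h after STZ. Under vehicle it had 925 and 1298 CPM in knockout islets, against 581 and 629 CPM in control islets. This difference, 0.88 on the log2 scale (SE 0.24), missed the threshold with adjusted p = 0.0585. It passed with total counts (adjusted p = 0.00349), with libraries paired by letter (adjusted p = 0.000273), by DESeq2's Wald test (0.00691) and without knockout vehicle A (adjusted p = 0.0481). Prlr 24 h after STZ had 193 and 177 CPM in knockout islets, against 549 and 495 CPM in control islets (log2 fold change -1.50, SE 0.25, adjusted p = 0.00126; log2 value 0.38 with pan-endocrine scaling). At 4 wk it had 696 and 459 CPM in knockout islets, against 839.6 and 601 CPM in control islets, and the genotypes overlapped (log2 fold change -0.32, SE 0.24, adjusted p = 0.384, and adjusted p = 0.0158 with libraries paired by letter; the shift of 0.67 with pan-endocrine scaling exceeds it). In order of mean level, knockout vehicle was followed by control 4 wk, control vehicle, knockout 4 wk, control 24 h and knockout 24 h; the first and last groups overlapped no other, while each of the 4 groups between them overlapped its neighbour in that order.

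Within knockout islets Prlr fell by 2.59 on the log2 scale at 24 h after STZ (SE 0.26, adjusted p = 3.61e-05, and log2 value -0.49 with adjusted p = 0.0916 under pan-endocrine scaling). In control islets the change was -0.21 (SE 0.24, adjusted p = 0.673). The effects of the genotypes differed by -2.37 (SE 0.34, adjusted p = 0.000719), and by -0.16 with adjusted p = 0.716 under pan-endocrine scaling. The high knockout vehicle level enters this difference. At 4 wk the fall against vehicle in knockout islets was 0.94 (adjusted p = 0.0154, adjusted p = 0.412 with pan-endocrine scaling, adjusted p = 0.106 without knockout vehicle B and adjusted p = 0.0735 without knockout STZ 4 wk B), and from 24 h to 4 wk Prlr rose by 1.64 in knockout islets (adjusted p = 0.00106, adjusted p = 0.402 with pan-endocrine scaling). The pan-endocrine sum was 6427 and 6467 CPM in knockout islets 24 h after STZ, against 23628 and 23808 CPM in control islets. Under vehicle that sum was 26964 and 27969 CPM in knockout islets, against 21546 and 21996 CPM in control islets. Prlr followed it across the 12 libraries with a Pearson r of 0.909, as did Igf2r with 0.936 and Igf1r with 0.872. With the stellate sum the r of Prlr was -0.929.

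The 2 main Prlr transcripts of the annotation end in different last exons. These separate a long receptor of 608 residues, with the tail that activates STAT5, from a short receptor of 310 residues without it. The annotated long transcript also starts at the upstream first exon and the short one at the downstream first exon. A form of 303 residues, with another last exon, took at most 0.0824% of the Prlr counts in any library. The share of gene counts given to the short transcript was highest in knockout islets 24 h after STZ, at 17.4 and 17.3%, against 8.09 and 8.05% in control islets. That share draws on the coverage of the last exons and of the first exons tied to them in the annotation. The authors deposited coverage as reads per base without scaling for library size. The last exon of the long form was covered 115 and 113 reads deep in knockout islets 24 h after STZ, against 438 and 429.8 in control islets. The last exon of the short form was covered 41.9 and 43.6 reads deep in knockout islets, against 42.6 and 41.5 in control islets. In this unscaled coverage the short-form exon overlapped between genotypes where the long-form exon was far lower in knockout islets. The TMM factors were 0.866 and 0.870 for these knockout libraries, against 1.04 and 1.03 for the control libraries. Scaling would thus raise knockout against control coverage, and the overlap need not hold on the TMM scale. The ratio of short over long last exon was 0.363 and 0.387 in knockout islets 24 h after STZ, against 0.0973 and 0.0966 in control islets, and 0.181 and 0.19 in knockout islets at 4 wk, against 0.0665 and 0.0749 in control islets. Under vehicle it was 0.0944 and 0.0926 in knockout islets, against 0.0878 and 0.0912 in control islets. With 2 libraries a group these within-library ratios were not tested, and the gap of knockout to control after STZ was wider than the gap between A and B in every group.

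**Figure D4:**
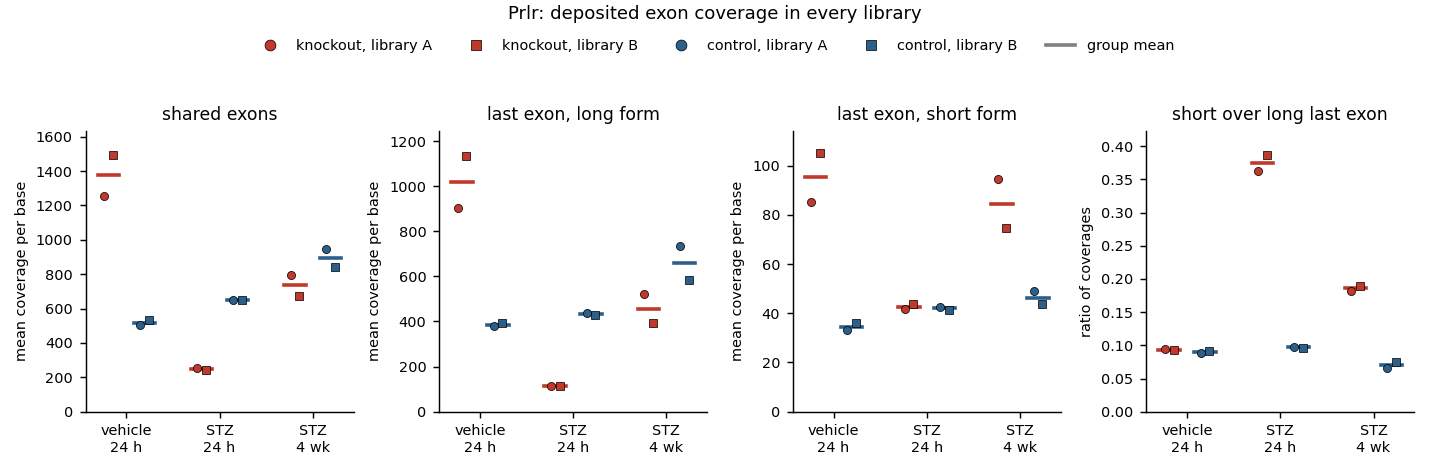
Mean deposited coverage per base of the Prlr exons shared by the forms, of the last exon of the long and of the short form, and the ratio of short over long last exon, in every library (knockout in red left of control in blue; bars are means of 2 libraries). The ratio was 0.363 and 0.387 in knockout islets 24 h after STZ, above the other 10 libraries.

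Coverage in all 12 libraries was deeper over the downstream first exon (chr15:10223906-10224096) than over the upstream one, and the region before it carries the FOXO and STAT5 matches printed above. The annotation gives this downstream exon to the short transcript, although the last exon of the long form was the deeper covered in every library. Coverage of the downstream exon was 1099.8 and 1036 in knockout vehicle islets, against 378 and 346 in control vehicle islets, and that of the upstream first exon was 124 and 107 in knockout vehicle islets, against 72.7 and 56.8 in control vehicle islets. Downstream over upstream coverage was 8.86 and 9.68 in knockout vehicle islets, against 5.20 and 6.10 in control vehicle islets. It was 5.73 and 4.43 in knockout islets 24 h after STZ, against 5.32 and 3.75 in control islets. In these depths, not scaled for library size, both first exons were higher in knockout vehicle islets, the downstream one by more. Both were lower in knockout islets 24 h after STZ. The TMM factors were 1.21 and 1.20 for knockout vehicle, against 0.825 and 0.842 for control vehicle libraries, so scaling would narrow the vehicle gaps.

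Ghr (chr15:3317755-3583352, minus strand), the growth hormone receptor, was below control levels in knockout islets after STZ and did not pass at either time. At 24 h after STZ it had 165 and 148 CPM in knockout islets, against 245 and 237 CPM in control islets (log2 fold change -0.62, SE 0.24, adjusted p = 0.0633, adjusted p = 0.000369 with libraries paired by letter, but log2 value 1.26 with pan-endocrine scaling). Its level 4 wk after STZ was 203 and 134 CPM in knockout islets, against 302 and 226 CPM in control islets (log2 fold change -0.64, SE 0.24, adjusted p = 0.0778, adjusted p = 0.00041 with libraries paired by letter, but log2 value 0.02 with pan-endocrine scaling). The genotypes did not overlap at either time. Under vehicle it had 201 and 286 CPM in knockout islets, against 248 and 280.0 CPM in control islets, and they overlapped. In knockout islets Ghr fell 24 h after STZ (log2 fold change -0.64, SE 0.24, adjusted p = 0.0472, but log2 value 1.46 with pan-endocrine scaling), a call that ended without knockout vehicle B (adjusted p = 0.291), knockout STZ 24 h A (adjusted p = 0.108) or knockout STZ 24 h B (adjusted p = 0.193). The transcript of the full-length receptor of 650 residues took 91.7 to 96.2% of Ghr counts and that of the secreted binding protein of 297 residues 3.79 to 8.28%. Coverage of the annotated first exon was 4.02 to 21.7, against 176 to 413 over the second exon, so most Ghr reads lie downstream of the annotated first exon.

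Of the hormones that bind these receptors, the prolactin gene Prl and the placental lactogen gene Prl3d1 had 0 counts in all 12 libraries, and Gh had at most 8 counts in any. Tph1, which prolactin signalling raises in mouse beta cells, had 7.19 and 6.16 CPM in knockout islets 4 wk after STZ, against 0.271 and 0.16 CPM in control islets (adjusted p = 0.00407), and 0 counts in both knockout vehicle libraries. Jak2, the kinase of both receptors, was higher in knockout than in control islets at 24 h (log2 fold change 0.67, SE 0.20, adjusted p = 0.023) and at 4 wk (log2 fold change 1.59, SE 0.20, adjusted p = 0.00042). Stat5a, Stat5b, Socs2 and Cish, the signal carriers and feedback inhibitors, passed in none of the 3 comparisons of knockout with control. Stat5b under vehicle was 0.79 in knockout over control (adjusted p = 0.0622). Its STZ effect at 4 wk differed between genotypes by -1.17 (adjusted p = 0.0242), and was -0.69 in knockout islets (adjusted p = 0.0398). Socs2 fell in knockout islets 24 h after STZ (log2 fold change -0.77, SE 0.23, adjusted p = 0.0173) and at 4 wk (-0.72, adjusted p = 0.0358). In control islets Socs2 fell at 4 wk (-0.92, adjusted p = 0.0384). The all-gene median for knockout 4 wk over vehicle was 0.69 with pan-endocrine scaling, about the size of those knockout changes. Ccnd2, the cyclin of beta-cell proliferation, had 279 and 273 CPM in knockout islets 24 h after STZ, against 945 and 921 CPM in control islets (log2 fold change -1.76, SE 0.11, adjusted p = 6.98e-06). The 4 wk libraries gave 568 and 494 CPM in knockout islets, against 942 and 833 CPM in control islets (log2 fold change -0.74, SE 0.11, adjusted p = 0.00103).

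Met (chr6:17463957-17573980, plus strand), the receptor of hepatocyte growth factor, passed as higher in knockout islets 24 h after STZ, by a call that rested on each of the 4 libraries, and did not pass at 4 wk. At 24 h it had 47.9 and 47.5 CPM in knockout islets, against 34.5 and 30.2 CPM in control islets (log2 fold change 0.56, SE 0.20, adjusted p = 0.0462). This call ended without any 1 of the 4 libraries (adjusted p of 0.0969 to 0.215) and with total counts (0.237). By 4 wk it had 54.3 and 39.1 CPM in knockout islets, against 39.7 and 28.97 CPM in control islets, and the genotypes overlapped (log2 fold change 0.44, SE 0.20, adjusted p = 0.135, and adjusted p = 0.0031 with libraries paired by letter). Under vehicle it was the other way round, with 25.9 and 31.4 CPM in knockout islets, against 36.3 and 37.1 CPM in control islets (log2 fold change -0.36, SE 0.20, adjusted p = 0.389, and adjusted p = 0.018 with libraries paired by letter; the shift of 0.53 with total counts exceeds it). In knockout islets Met rose at 24 h after STZ (log2 fold change 0.74, SE 0.20, adjusted p = 0.0112, adjusted p = 0.0701 without knockout vehicle A and adjusted p = 0.274 with total counts) and at 4 wk (log2 fold change 0.71, SE 0.20, adjusted p = 0.0216, adjusted p = 0.111 without knockout vehicle A, adjusted p = 0.102 without knockout STZ 4 wk A and adjusted p = 0.0907 with total counts). The 24 h effect differed from that of control islets by 0.92 (SE 0.28, adjusted p = 0.0286), a call that held without knockout vehicle B and ended without any other single library of the 8. It also ended with total counts (adjusted p = 0.723).

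Hgf, the ligand of MET and a product of mesenchymal cells and macrophages, had 14.5 and 14.02 CPM in knockout islets 24 h after STZ, against 2.97 and 2.32 CPM in control islets (log2 fold change 2.43, SE 0.18, adjusted p = 1.49e-05). At 4 wk it had 5.49 and 4.46 CPM in knockout islets, against 2.23 and 2.05 CPM in control islets (log2 fold change 1.22, SE 0.18, adjusted p = 0.000888). Receptor and ligand thus both stood higher in knockout islets 24 h after STZ, with the macrophage and stellate sums given above. The sum of 9 duct-cell markers, a cell type that also expresses Met, was 601 and 623 CPM in knockout islets 24 h after STZ, against 362 and 376 CPM in control islets, and 262 and 206 CPM in knockout vehicle islets, against 344 and 330.1 CPM in control vehicle islets. Across the 12 libraries Met in log2 CPM followed the duct sum with a Pearson r of 0.637 and the adipocyte sum, given for Igf1, with 0.861. The part of these cells in the Met result was not tested.

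**Figure D5:**
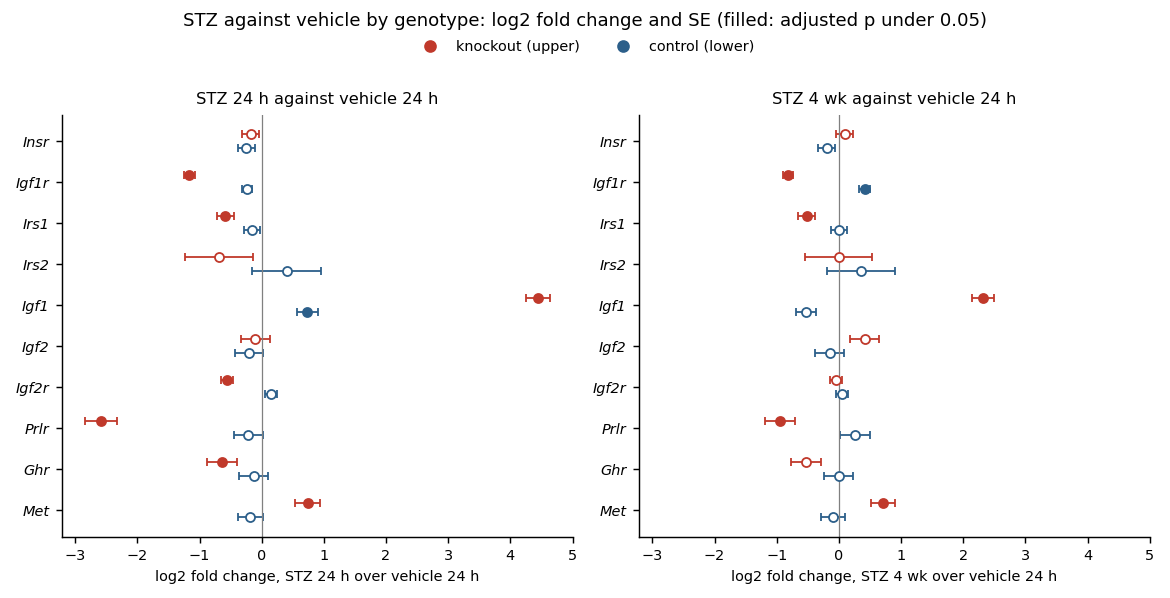
Log2 fold change of STZ over vehicle (horizontal axis) with its SE as the bar, for knockout (red, upper) and control islets (blue, lower), at 24 h and at 4 wk after STZ; filled points passed an adjusted p of 0.05. At 24 h 7 members were filled in knockout islets and 1 in control islets, and Igf1 and Prlr lay farthest from 0.

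Set against vehicle, more members passed in knockout than in control islets, as for the whole table. At 24 h after STZ 7 of the 10 passed in knockout islets, Igf1 and Met higher and Igf1r, Irs1, Igf2r, Prlr and Ghr lower, when 56.4% of all genes (30.1% higher and 26.2% lower) did. In control islets 1 passed (Igf1), when 7.56% of all genes (5.41% higher and 2.15% lower) did. At 4 wk 5 passed in knockout islets, Igf1 and Met higher and Igf1r, Irs1 and Prlr lower, against 35.9% of all genes (24.1% higher and 11.7% lower). In control islets 1 passed then (Igf1r), against 8.99% of all genes (4.98% higher and 4.01% lower). A knockout STZ effect unlike the control one was called for 5 members at 24 h, against 37.7% of all genes (21.1% higher and 16.6% lower). The same was called for Igf1, Igf1r and Prlr at 4 wk, against 26.1% of all genes (18.7% higher and 7.35% lower). From 24 h to 4 wk Igf1 fell and Igf1r, Igf2r and Prlr rose in knockout islets, 4 members against 35.7% of all genes (20.2% higher and 15.5% lower). Over the same interval Igf1 fell and Igf1r rose in control islets, 2 members against 5.49% of all genes (1.27% higher and 4.22% lower). These comparisons share their vehicle or 24 h libraries. With pan-endocrine scaling the genes called higher and lower were 15073 and 74 for knockout STZ 24 h over vehicle and 8959 and 92 for knockout STZ 4 wk over vehicle. On that scale they were 458 and 12970 for knockout 4 wk over 24 h and 824 and 568 for control STZ 24 h over vehicle. The same scaling gave 639 and 2436 for control STZ 4 wk over vehicle and 154 and 1219 for control 4 wk over 24 h. It gave 13779 and 59 for the genotype difference in the 24 h effect and 9147 and 78 for the genotype difference in the 4 wk effect. With total counts the genes called higher and lower were 4085 and 7563 for knockout STZ 24 h over vehicle and 3667 and 4409 for knockout STZ 4 wk over vehicle. On that scale they were 5285 and 2074 for knockout 4 wk over 24 h and 2408 and 226 for control STZ 24 h over vehicle. The same scaling gave 3852 and 455 for control STZ 4 wk over vehicle and 2436 and 7708 for the genotype difference in the 24 h effect. It gave 2371 and 5832 for the genotype difference in the 4 wk effect.

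The relay downstream of the insulin and IGF1 receptors was followed in 29 genes. At 24 h after STZ 3 were higher and 7 lower in knockout islets. At 4 wk 3 higher and 2 lower, and under vehicle none passed. Their medians were -0.16, -0.12 and -0.01 in that order, beside medians of all genes of 0.00, 0.01 and 0.00. Among all genes 43% passed at 24 h, 27.8% at 4 wk and 9.64% under vehicle, so the share of this list that passed was below the background in each. Insrr, the insulin receptor-related kinase of islets, had 67.1 and 76.3 CPM in knockout islets 24 h after STZ, against 234 and 252 CPM in control islets (log2 fold change -1.76, SE 0.32, adjusted p = 0.00223). Tsc1, a brake on mTORC1, was lower in knockout islets at 24 h (log2 fold change -0.76, SE 0.09, adjusted p = 0.000183) and at 4 wk (log2 fold change -0.63, SE 0.09, adjusted p = 0.000787). Gab1, a docking protein also used by MET, was higher at 4 wk (log2 fold change 1.17, SE 0.14, adjusted p = 0.000318). A change of scale shifts all genes of a comparison alike, so Insrr and Tsc1, as well as Ccnd2, Pappa2 and Igfbp3 at 24 h, stand above 0 there with pan-endocrine scaling, whose shift was 1.88. The shift of 0.67 at 4 wk does the same for Tsc1 and Grb10, that of 2.09 for Socs2 in knockout islets 24 h after STZ, and that of 0.53 with total counts for Igfbp3 under vehicle. Foxo1, the factor that AKT keeps out of the nucleus, passed in none of the 3 comparisons of knockout with control.

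Of 20 genes that brake these signals, 4 were lower and none higher in knockout vehicle islets. At 24 h after STZ 3 were higher and 2 lower, and at 4 wk 4 were higher and 3 lower. Among all genes the shares passing were 9.64% (1.96% higher and 7.68% lower), 43% (23.7% higher and 19.4% lower) and 27.8% (19.9% higher and 7.89% lower) in the same order. The list medians were -0.06 under vehicle, -0.09 at 24 h and 0.29 at 4 wk, beside 0.00, 0.00 and 0.01 for all genes. Errfi1, an inhibitor of the EGF receptor, and Enpp1, an inhibitor of the insulin receptor, changed order between conditions as Igf1 did. Errfi1 had 50.3 and 60.04 CPM in knockout against 139 and 147 CPM in control islets under vehicle (log2 fold change -1.37, SE 0.15, adjusted p = 0.000503), and 219 and 212 CPM in knockout against 100.0 and 93.8 CPM in control islets at 24 h after STZ (log2 fold change 1.15, SE 0.15, adjusted p = 0.000336). Enpp1 was -1.42 under vehicle (adjusted p = 0.00221) and 1.62 at 24 h after STZ (adjusted p = 0.00027). Socs3, a feedback inhibitor induced by cytokines, was -1.38 under vehicle (adjusted p = 0.0248) and 1.61 at 24 h after STZ (adjusted p = 0.00315). Grb10, an adaptor that inhibits the insulin and IGF1 receptors, was -0.35 at 4 wk (adjusted p = 0.0315).

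The 15 IGF-binding proteins, stanniocalcins and proteases that set how much IGF is free (3 of them RNA-binding proteins named for Igf2) were counted in the same way. In knockout islets 1 was higher and 6 lower under vehicle, 6 higher and 2 lower at 24 h after STZ, and 7 higher and none lower at 4 wk. The list medians were -0.67, 0.48 and 0.82, the last 0.62 with the 2 genes at 0 in 1 group set to their bound at 3 counts a library. All genes had medians of 0.00, 0.00 and 0.01, with 9.64%, 43% and 27.8% passing. Igfbp4 had 245 and 258 CPM in knockout islets 24 h after STZ, against 51.2 and 52.4 CPM in control islets (log2 fold change 2.28, SE 0.14, adjusted p = 6.3e-06). Under vehicle it had 6.99 and 6.50 CPM in knockout islets, against 12.4 and 11.4 CPM in control islets (log2 fold change -0.82, SE 0.14, adjusted p = 0.00519). Pappa2, a protease that frees IGF from binding proteins and is high in islets, ran the other way. It had 179.9 and 171 CPM in knockout islets 24 h after STZ, against 477 and 477 CPM in control islets (log2 fold change -1.44, SE 0.12, adjusted p = 2.47e-05), and 693 and 772 CPM in knockout islets under vehicle, against 519 and 555 CPM in control islets (log2 fold change 0.45, SE 0.12, adjusted p = 0.0461).

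Igfbp1, a hepatocyte product, had 9.01 and 8.29 CPM in knockout islets 24 h after STZ, against 0.535 and 0.473 CPM in control islets, and 0 counts in both knockout vehicle libraries. The hepatocyte sums given for Igf1 were also higher in knockout islets 24 h after STZ, and their part was not tested. Stanniocalcin 2 (Stc2), an inhibitor of the PAPP-A proteases, was -1.75 under vehicle and 1.49 at 24 h after STZ (adjusted p = 0.00079 and 0.000426). Stc1 was -0.96, 0.70 and 0.82 in the 3 conditions (adjusted p = 0.0118, 0.0148 and 0.0112). Igfbp3 was -0.34, -0.42 and 0.28 (adjusted p = 0.0448, 0.00451 and 0.0454). Igfbp7 was 0.46 at 24 h (adjusted p = 0.00256), and Igf2bp2, Pappa and Igfbp2 were 1.74, 1.68 and 2.63 at 4 wk (adjusted p = 0.000342, 0.00605 and 0.0267). Igf2bp3 had 2.14 and 1.52 CPM in knockout islets 24 h after STZ, against 0 and 0.024 CPM in control islets (adjusted p = 0.00586), and Igfbp6, which passed under vehicle (adjusted p = 0.0429), had 0 counts in both knockout vehicle libraries and 0.12 and 0.0683 CPM in control vehicle islets.

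Of the prolactin and growth hormone relay and targets, 15 of 19 genes could be tested, and at 24 h after STZ 7 were higher and 3 lower in knockout islets, with a list median of 0.53 beside 0.00 for all genes, of which 43% passed. Those higher included Hnf4a and Ehhadh, genes of liver and metabolism (1.55 and 1.61, adjusted p = 7.99e-06 and 8.87e-06), and those lower Ccnd2 and Tph2. Under vehicle 1 was higher and 3 lower, among them Bcl6, a repressor that STAT5 lowers, at 2.55 and 2.49 CPM in knockout islets, against 9.71 and 10.1 CPM in control islets (log2 fold change -1.98, SE 0.16, adjusted p = 7.42e-05). Of all genes 9.64% passed under vehicle. The list median was 0.00 under vehicle and -0.14 at 4 wk, beside 0.00 and 0.01 for all genes. At 4 wk 6 were higher and 3 lower, when 27.8% of all genes passed (19.9% higher and 7.89% lower).

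Of 23 genes for other receptor tyrosine kinases, HGF and its relatives, 14 were higher and 3 lower in knockout islets at 24 h after STZ, with a list median of 0.86, and 11 were higher and 5 lower at 4 wk, with a median of 0.89. The all-gene medians were 0.00 and 0.01, with 43% (23.7% higher and 19.4% lower) passing at 24 h and 27.8% (19.9% higher and 7.89% lower) at 4 wk. Under vehicle 1 of the list was higher and 4 lower, with a median of -0.35, when 1.96% of all genes were higher and 7.68% lower. Pdgfra, Pdgfrb, Kdr and Flt1 of this list also belong to the stellate or endothelial marker lists. Pdgfra, a mesenchymal receptor, Mertk, a phagocyte receptor, and Axl were higher at 24 h (2.35, 2.68 and 1.83, adjusted p = 4.48e-06, 6.98e-06 and 7.29e-06), and Ntrk2, the BDNF receptor, was lower (-2.08, adjusted p = 1.82e-06). Of 21 other growth-factor ligands tested, 10 were higher and 4 lower at 24 h, and 8 higher and none lower at 4 wk, with medians of 0.76 and 0.26 beside the same all-gene medians and shares. Tgfa and Areg, ligands of the EGF receptor, were 0.99 and 2.24 at 24 h (adjusted p = 0.000128 and 0.000574).

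Across the 12 libraries, the 10 members fell into patterns that describe these groups. Igf1 and Prlr ran most opposite, with a Pearson r of log2 CPM of -0.925, and Igf1r and Irs1 most alike, with 0.896, followed by Irs1 and Ghr with 0.895. Among 12536 genes with a mean of at least 2 CPM, those most like Prlr were Rab3c (r = 0.992), Fam135b (0.987) and Nefm (0.986), and those most like Igf1 were Adhfe1 (0.994), Gjb2 (0.991) and Aass (0.987). Rbm20, Thada and Lgals12 were most like Igf1r (0.979, 0.978 and 0.976), and Tbcd, Ctdspl and Cirbp most like Igf2r (0.982, 0.981 and 0.980). Smpdl3a, Mpc1 and Prex2 were most like Met (0.969, 0.951 and 0.950), Rnf2, Rwdd1 and Polr3k most like Ghr (0.986, 0.985 and 0.983), and Dnajb14, Nap1l4 and Zfp422 most like Irs1 (0.983, 0.982 and 0.981). Insr was most like Ccz1, Crbn and Yipf5 (0.972, 0.970 and 0.969), Irs2 most like Abcc10, Tesk1 and Itpr3 (0.974, 0.959 and 0.957), and Igf2 had the weakest likeness, to Slc3a2, Lzts3 and Trappc4 (0.833, 0.821 and 0.812). The libraries share groups, so these values describe the 12 libraries only.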

How the data were processed

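RNA from whole islets was sequenced as stranded, paired reads of 100 bases, with 6 samples per lane, per the labels' protocols. The authors deposited estimated counts per gene and per transcript for 12 libraries, made with StringTie 1.3.6 on mm10 per the file headers; no source used here names the aligner. Each deposited count equals transcript coverage times length over 75 bases, to within 1 count. The same files hold mean coverage per base for each exon and transcript and TPM, as the authors deposited them, and TPM was summed over the transcripts of a gene here. The estimated counts, already whole, were tested with edgeR 4.0.16 (quasi-likelihood, TMM) in R 4.3.3 after a filter on low counts that left 17411 of 24421 genes, in 1 fit of 6 group means leaving 6 residual degrees of freedom. Benjamini-Hochberg adjustment ran over all genes tested, with a threshold of 0.05, for each of 11 comparisons; a fit on simulated counts was checked first. Alternatives were DESeq2 1.42.0 size factors and its Wald test, total-count and pan-endocrine scaling, no filter, each library left out, TPM, and a block for the library letter.

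The A minus B differences of the genotypes correlated across genes within a condition (0.357 for vehicle, 0.151 for STZ 24 h and 0.785 for STZ 4 wk). In an alternative for comparisons of genotypes, libraries were treated as paired by letter, which assumes a pairing that these correlations do not establish. The STZ 24 h value lay below some between different conditions. Knockout STZ 24 h gave 0.45 with knockout STZ 4 wk and 0.47 with control STZ 4 wk. The pairing comes from the data alone, since no label ties a letter to a litter, batch or day. Between A and B of a group, a chi-square over genes gave 23.02 to 432.1 per degree of freedom, so no pair was 1 library deposited again. The 10 genes, the pathway lists and the cell markers were chosen with earlier results of these data known. Named list genes are those with the smallest adjusted p of each list and comparison (4 each, of which some are given), all IGF-binding genes past the threshold between genotypes, and partners fixed by name. Likeness used genes with a mean of at least 2 CPM.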

Additional observations from a re-analysis of the deposited data

Results flagged for a closer look

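The STZ effect differed between knockout and control islets, by the interaction term of the same fit, for 5 of the 10 genes at 24 h and 3 at 4 wk, when 37.7% and 26.1% of all genes did. At 24 h the difference, knockout minus control on the log2 scale, was 3.71 for Igf1, -2.37 for Prlr, -0.93 for Igf1r, 0.92 for Met and -0.71 for Igf2r. At 4 wk it was 2.84 for Igf1, -1.23 for Igf1r and -1.20 for Prlr. The Prlr call at 4 wk (adjusted p = 0.0315) ended without control vehicle A (0.107), control vehicle B (0.0787), control STZ 4 wk A (0.0999), knockout vehicle B (0.101) or knockout STZ 4 wk B (0.0624). At 24 h after STZ the macrophage, stellate and hepatocyte marker sums stood higher in knockout than in control islets, as Igf1 did. So did the acinar, duct, endothelial and adipocyte sums. The pan-endocrine sums stood lower, as Prlr, Igf1r and Igf2r did. Their part in these results was not tested.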

How the results depend on the processing

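Of 45 results for single genes with an unadjusted p under 0.05, 44 kept direction and call with DESeq2 size factors, 43 without the filter, 39 with DESeq2's Wald test, 35 with total counts and 16 with pan-endocrine scaling. Pan-endocrine scaling turned the log2 difference of knockout and control at 24 h after STZ to 0.92 for Igf1r, 1.52 for Irs1, 1.15 for Igf2r, 0.38 for Prlr and 1.26 for Ghr, and at 4 wk to 0.22 for Irs1 and 0.0222 for Ghr. In knockout islets it turned STZ 24 h over vehicle to 0.93 for Igf1r, 1.50 for Irs1, 1.52 for Igf2r and 1.46 for Ghr, STZ 4 wk over vehicle to 0.16 for Irs1, and 4 wk over 24 h to -1.07 for Igf1r and -0.90 for Igf2r. It turned the difference of the STZ effects to 1.29 for Igf1r and 1.50 for Igf2r at 24 h and to 0.48 for Irs1 at 4 wk, and total counts turned Igf1r in control islets at 24 h to 0.0732. By construction a scaling moves all genes of a comparison together.

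Counts of members past the threshold moved as follows. Between genotypes under vehicle 1 became 5 with total counts, 5 with pan-endocrine scaling, 2 with the Wald test and 3 with the replicate block, at 24 h after STZ 5 became 9 with pan-endocrine scaling, and at 4 wk 3 became 6 with pan-endocrine scaling and 6 with the replicate block. In control islets 1 member at 24 h became 2 with total counts, 2 with the Wald test and 0 with the replicate block (2 members, Igf1 and Igf1r, had an unadjusted p under 0.05 in the edgeR fit without it), and 1 at 4 wk became 2 with total counts and 2 with pan-endocrine scaling. In knockout islets 4 members between 24 h and 4 wk became 8 with pan-endocrine scaling, and for the difference of the STZ effects 5 became 8 with pan-endocrine scaling at 24 h and 3 became 6 with total counts, 5 with pan-endocrine scaling and 5 with the Wald test at 4 wk. Between conditions the letters do not pair the libraries (correlations of -0.703 to 0.47), and with the replicate block 5 members still passed for the difference at 24 h.

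With 1 library left out, the range was 1 to 2 members under vehicle, 4 to 4 at 24 h and 2 to 3 at 4 wk between genotypes. In control islets it was 0 to 0 at 24 h, 0 to 0 at 4 wk and 2 to 2 between those times, and in knockout islets 6 to 6 at 24 h, 3 to 5 at 4 wk and 3 to 5 between those times. For the difference of the STZ effects it was 4 to 5 at 24 h and 2 to 4 at 4 wk. Deposited TPM, which has no test here, moved 26 of 35 log2 ratios by more than the SE of the fit.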

Other observations

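Growth-factor genes outside the 10 genes also differed between genotypes without injury. Hbegf, a ligand of the EGF receptor, was 1.31 on the log2 scale in knockout over control vehicle islets (adjusted p = 0.00166) while Areg, another ligand of that receptor, was -1.67 (adjusted p = 0.0127). Kit, the receptor of stem cell factor, had 11.4 and 12.02 CPM in knockout vehicle islets, against 24.1 and 24.9 CPM in control vehicle islets (log2 fold change -1.07, SE 0.12, adjusted p = 0.000517). These genes were picked after their values were seen, from lists fixed by name.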
